A study of Mus musculus with 14 samples.

Results

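The genes described here are 36 members of the machinery that copies and divides the genome, 21 that act in S phase or at its onset and 15 that act in mitosis. They are listed by name and stand among the 21887 protein-coding genes of the RefSeq gene table of the mouse build GRCm38.p6. Each gene was looked up by its span extended by 1 kb at both ends, and a peak was assigned to it when the peak overlapped that window by at least 1 bp. All 36 symbols were found, 7 of them on chromosome 2 and 4 on chromosome 4. The data are chromatin immunoprecipitation with sequencing (ChIP-seq) of ATDC5 cells, a chondrogenic mouse line of teratocarcinoma origin, with 2 libraries for each antibody and day. The groups were RUNX2 on day 0, day 3 and day 10, and H3K4me3 on day 0, day 3 and day 10. Every group was the same line without a named genetic change. Cells of days 3 and 10 had been spotted as dense droplets and given β-glycerophosphate with L-ascorbate-2-phosphate, while undifferentiated cells were kept by passaging. No label states whether replicate libraries were made from different cultures, and a p-value here measures only the spread between libraries, which may be technical.

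S phase begins when E2F transcription factors, freed from pocket proteins by cyclin-dependent kinases, raise the transcription of licensing factors, the MCM helicase and enzymes of nucleotide supply. Mitotic genes peak later in the cycle, through the MuvB complex with MYBL2 and FOXM1, and their promoters often carry CCAAT boxes and the cell cycle genes homology region (CHR). H3K4me3, trimethylation of lysine 4 of histone H3, marks promoters that are active or poised, and RUNX2 is a runt-domain factor of osteoblasts and maturing chondrocytes that binds a core of the letters TGTGGT or TGCGGT.

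The promoters of 4 members, from 250 bases before to 50 after a RefSeq transcript start in GRCm38.p6, show the letters that the motif counts further on rest on. Mcm6 is shown for its 5 E2F matches beside a RUNX match, and Mcm7 for the strongest H3K4me3 rank among the members. Top2a is shown for its CHR matches, and Ccnb1 for the strongest RUNX2 rank. These 4 were chosen after their values were seen. They lie at chr1:128359656-128359955, chr5:138171834-138172133, chr11:99024140-99024439 and chr13:100786437-100786736, all on the minus strand. Capitals mark every match, on either strand, to the E2F letters TTCCCGC or TTCGCGC or TTGCCGC or TTGGCGC, the CHR letters TTTGAA or TTCGAA, the CCAAT box, or the RUNX letters TGTGGT or TGCGGT. Overlapping matches run together.
Mcm6: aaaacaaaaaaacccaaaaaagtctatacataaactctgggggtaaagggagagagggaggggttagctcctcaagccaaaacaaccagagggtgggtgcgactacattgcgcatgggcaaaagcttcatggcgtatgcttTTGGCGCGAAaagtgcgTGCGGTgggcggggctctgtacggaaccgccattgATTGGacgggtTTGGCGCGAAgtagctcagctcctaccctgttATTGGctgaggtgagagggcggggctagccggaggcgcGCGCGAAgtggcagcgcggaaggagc
Mcm7: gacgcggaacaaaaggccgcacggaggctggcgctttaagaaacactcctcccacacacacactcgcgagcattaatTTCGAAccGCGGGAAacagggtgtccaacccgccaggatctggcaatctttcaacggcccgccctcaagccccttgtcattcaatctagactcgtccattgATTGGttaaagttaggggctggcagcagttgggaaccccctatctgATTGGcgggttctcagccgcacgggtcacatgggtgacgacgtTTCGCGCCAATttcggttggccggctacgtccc
Top2a: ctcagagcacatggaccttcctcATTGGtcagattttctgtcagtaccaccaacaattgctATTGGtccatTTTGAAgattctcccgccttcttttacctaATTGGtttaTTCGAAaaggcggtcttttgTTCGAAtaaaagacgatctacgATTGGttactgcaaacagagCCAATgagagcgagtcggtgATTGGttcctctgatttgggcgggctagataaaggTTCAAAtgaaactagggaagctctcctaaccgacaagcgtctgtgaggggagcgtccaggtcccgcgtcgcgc
Ccnb1: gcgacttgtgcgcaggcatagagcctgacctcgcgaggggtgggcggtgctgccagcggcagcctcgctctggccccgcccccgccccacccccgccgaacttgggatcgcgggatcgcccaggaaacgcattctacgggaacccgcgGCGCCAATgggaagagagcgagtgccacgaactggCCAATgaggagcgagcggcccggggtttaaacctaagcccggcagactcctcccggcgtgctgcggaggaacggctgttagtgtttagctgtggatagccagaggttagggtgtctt

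The lists differed greatly in length, and the number of reads behind each is unknown here. For RUNX2 they had 108 and 102 peaks at day 0, then 19319 and 16859 at day 3, then 101 and 97 at day 10. For H3K4me3 they had 13765 and 20863 at day 0, then 28653 and 26781 at day 3, then 15219 and 29022 at day 10. Of 10 chondrocyte markers, 4 had an H3K4me3 peak in both libraries on day 0, 9 on day 3 and 9 on day 10, while the counts for 8 haematopoietic markers were 0, 4 and 2 and those for 6 epithelial markers 0, 2 and 1. Itgam, Krt8, Krt14 and Krt18, among the markers of these other cell types, had no H3K4me3 peak in any list. The part of other cells and of list length in the comparisons between days was not tested. Both RUNX2 libraries of day 3 stood apart in another way. Their summits fell on the same base in 51.9% of 17330 overlapping peaks, against 0.141 to 0.470% for the H3K4me3 pairs of a day. In the short RUNX2 lists of days 0 and 10 this share was 3.06% of 98 and 7.06% of 85 overlapping peaks. Summits lay within 10 bp in 85.1% of overlapping peaks for RUNX2 on day 3, 41.8% on day 0 and 63.5% on day 10. For the H3K4me3 pairs it was 3.25 to 8.30%. At the members the leading RUNX2 summits of day 3 coincided to the base in 22 of 36 genes (60.3% of the 12784 genes with RUNX2). They lay at most 15 bp apart. In the H3K4me3 pairs none of the 36 coincided to the base (0.141 to 0.282% of genes marked in all 6 lists). Whether both RUNX2 libraries of day 3 came from 1 chromatin sample is not given in the sources used here. The RUNX2 values of day 3 are therefore given for each library, and the spread between them may understate that between cultures.

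Every member carried H3K4me3 on every day. A peak was found at all 36 genes in all 6 H3K4me3 lists, including the shortest, and 51.9% of all protein-coding genes had one in all 6. No member lost the mark between any 2 days. None could gain it, since all 36 already had it on the earlier day. Of all genes without the mark in either library of the earlier day, 7.92% gained it in both libraries between day 3 and day 0, 0.147% between day 10 and day 3, and 2.85% between day 10 and day 0. Of the marked genes, 0.0175%, 0.942% and 0.00876% lost it in the same comparisons. By day, 52.2% of all genes were marked in both libraries on day 0, 61.6% on day 3 and 56.8% on day 10. With the same count of 36 in each library, the difference between days was 0 in each of the 3 comparisons (two-sided exact permutation test, p = 1, smallest possible p = 0.333 with 2 against 2 libraries).

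RUNX2 peaks were found at all 36 members in both libraries of day 3 and at none in the libraries of days 0 and 10. On day 3, 58.4% of all genes had a RUNX2 peak in both libraries, and so did 94.2% of the genes marked by H3K4me3 on that day. At day 0, 0.0274% of all genes had one in both libraries and 0.0548% in either, and at day 10, 0.0183% in both and 0.0503% in either. The RUNX2 peak nearest to a member on those days lay 212327 bp away, at Ccne1 in replicate 1 of day 10. The difference of 36 members between day 3 and day 0, and that of -36 between day 10 and day 3, had the smallest p that the design allows (two-sided exact permutation test, p = 0.333). When only the 102 or 97 strongest peaks of each list were compared, no member had a RUNX2 peak on any day.

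The H3K4me3 peaks of the members were broader on day 3 than on day 0, and so were those of the genes marked in all 6 lists. Over all peaks of a list the median width was 945 and 852 bp at day 0, and 936 and 794 bp at day 3. The leading peak of a gene, which is the peak with the highest −log10 q in its window, had a median width over the 36 members of 1448.5 and 1380 bp in the libraries of day 0, of 2353 and 2000.5 bp at day 3, and of 1325.5 and 2087 bp at day 10. Both values of day 3 lay above both of day 0, while the libraries of day 10 lay on either side of those of day 0 and 1 of them, at 2087 bp, lay between those of day 3. The mean was 2177 ± 249 bp on day 3 and 1414 ± 48.4 bp on day 0 (SD, n = 2 libraries each), a log2 ratio of 0.62 (two-sided exact permutation test, p = 0.333). In bulk chromatin, more cells with the mark and more mark per cell cannot be told apart. Over the 11366 genes marked in all 6 lists, called the common set below, the same ratio was 0.59. With all peak widths in a window summed, the members' ratio was 0.38 (exact permutation test, p = 0.333). Taken per gene, the median log2 ratio of summed widths was 0.484 at the members and 0.538 in the common set. For leading peaks it was 0.563 and 0.544. The log2 ratio of day 10 to day 3 was -0.35 for the members (p = 0.667 in the exact permutation test) and -0.25 for the common set. The ratio of day 10 to day 0 was 0.27 on the log2 scale (exact permutation test, p = 1), against 0.35 for the common set, and it was -0.027 when all peak widths in a window were summed. It was also below 0, at -0.094, without replicate 2 of day 10.

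Gene by gene, 25 of the 36 members had a wider leading peak in both libraries of day 3 than in both of day 0, and 0 had a narrower one. In the common set 72.2% of genes were wider and 0.290% narrower, so the members' share was near that of other marked genes. With the widths of all peaks in a window summed, 26 members were wider (79.5%) and 0 narrower (0.0528%). Between day 10 and day 3, 12 members were narrower in both later libraries (23.0% of the common set) and 0 wider (0.695%), and by summed widths 13 were narrower (20.6%) and 0 wider (0.238%). Among the 11 members whose libraries of day 3 and day 0 overlapped in width were 4 licensing genes, Cdc6, Gmnn, Mcm3 and Mcm7. Between day 10 and day 0, Orc1, Pcna, E2f2, Ccne1, Ccnb2, Aurkb and Bub1 were wider in both later libraries, which is 7 members (27.1% of the common set), and only Cdc25c was narrower (1.76%). By summed widths 3 members were wider, Ccnb2, Aurkb and Bub1 (21.5%), and 0 narrower (0.440%), so that the calls at Cdc25c and at the other 4 wider members ended. At Ccne1, Cdc25c, E2f2, E2f3 and Pcna the leading peaks of the 6 lists shared no base, which was so for 19.3% of the common set, and their width ratios set different peaks side by side. At Pcna the leading peak in replicate 2 of day 0 lay away from the start, where a peak of 2474 bp stood, wider than the 1828 bp of replicate 1 of day 10.

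**Figure D1:**
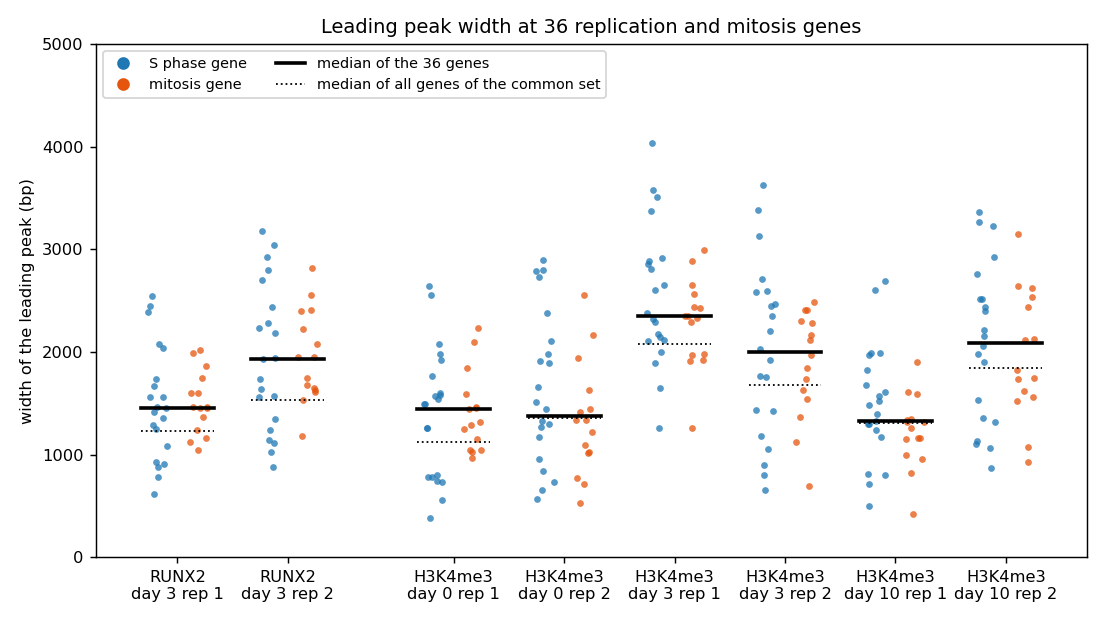
Width of the leading peak in bp at each of the 36 genes (points, S phase blue and mitosis orange) in the RUNX2 lists of day 3 and the 6 H3K4me3 lists; the thick bar is the median of the 36 and the dotted line the median of the common set, 11366 genes for H3K4me3 and 12784 for RUNX2. The H3K4me3 medians of the members are 1448.5 and 1380 bp at day 0, 2353 and 2000.5 bp at day 3, and 1325.5 and 2087 bp at day 10, and in every list the members' bar lies above the dotted line.

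Strength was compared by position, because −log10 q and fold depend on the library. The position is the rank of a gene's leading peak by −log10 q among the common set, as a percent of that set, so that 0 is the strong end and 100 the weak end. The members' median position was 44.4 and 60.0 at day 0, 57.8 and 57.3 at day 3, and 49.7 and 63.2 at day 10. The members thus stood near the middle of the marked genes in each library. Positions of both libraries were stronger on day 3 than on day 0 at 3 members (16.7% of the common set) and weaker at 7 (18.6%). Between day 10 and day 3 they were stronger at 7 (17.6%) and weaker at 4 (16.0%), and between day 10 and day 0 stronger at 2 (13.2%) and weaker at 3 (13.4%). The mean was 57.5 ± 0.302 on day 3 and 52.2 ± 11.1 on day 0 (SD, n = 2 each), a difference of 5.31 points (two-sided exact permutation test, p = 1). The difference between day 10 and day 3 was -1.13 points (exact permutation test, p = 1) and that between day 10 and day 0 was 4.18 points (exact permutation test, p = 0.667). Leaving out replicate 1 of day 0 turned the difference of day 3 from day 0 to -2.50 and that of day 10 from day 0 to -3.63. Leaving out replicate 1 of day 10 gave 5.61 against day 3, and leaving out replicate 2 gave -2.56 against day 0.

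**Figure D2:**
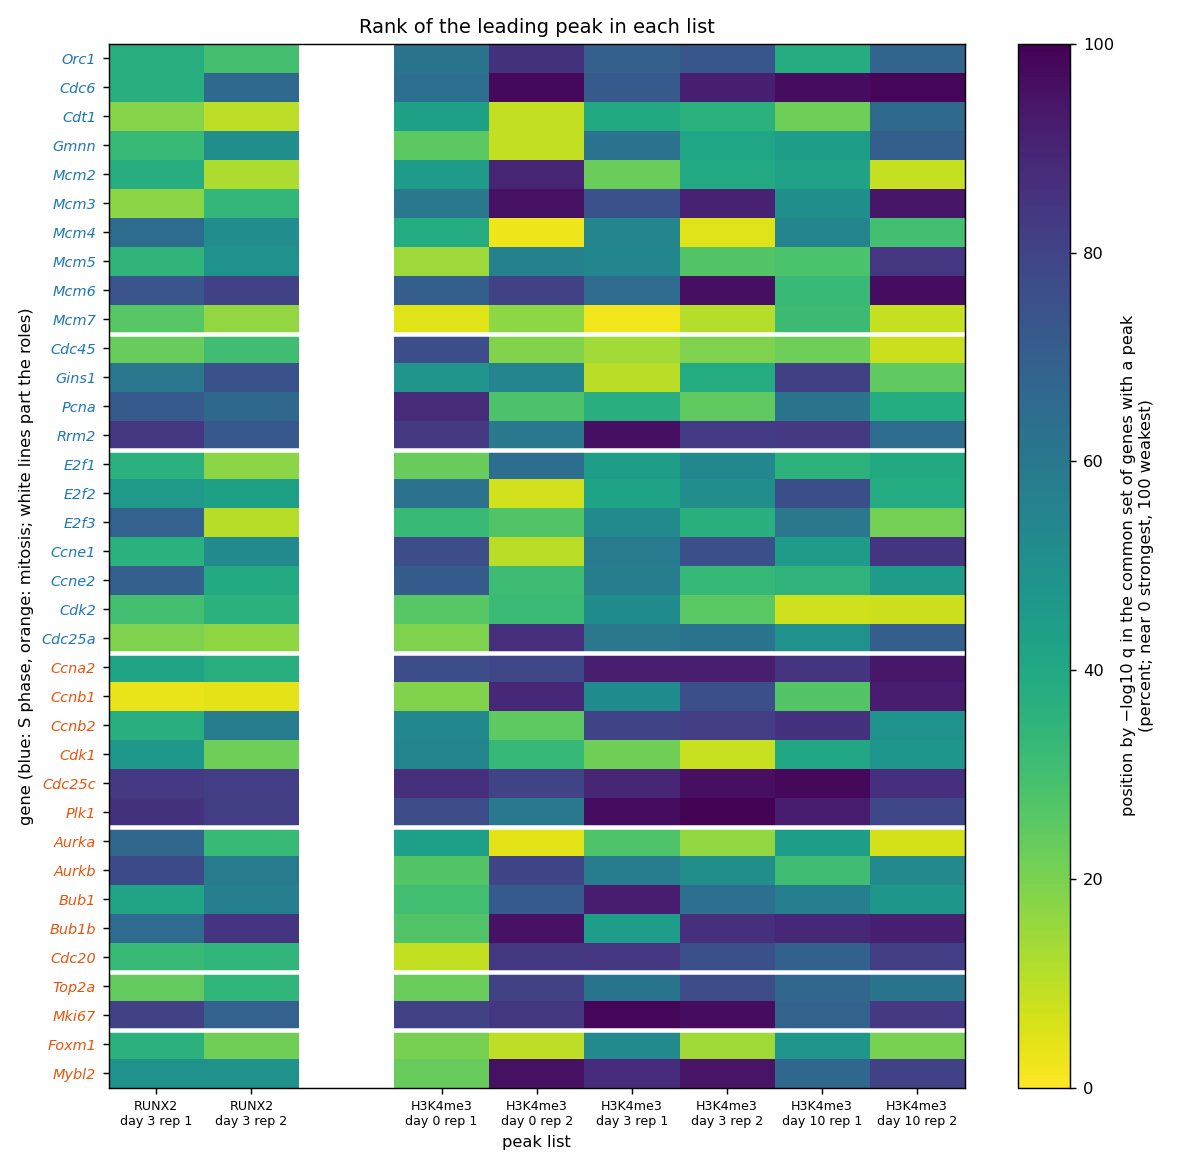
Position of each gene's leading peak by −log10 q, in percent of the common set (colour, 0 strongest and 100 weakest), for the 36 genes in the RUNX2 lists of day 3 and the 6 H3K4me3 lists; white lines part the roles. Mcm7 is at or below 31.3 in every H3K4me3 list, Cdc6 at or above 63.4, and Ccnb1 is at 3.41 and 4.26 in the RUNX2 lists.

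The origin licensing genes, which load the replicative helicase before S phase, held both ends of the range. Mcm7, a helicase subunit, had H3K4me3 positions of 4.69 and 17.1 at day 0, 2.12 and 11.3 at day 3, and 31.3 and 8.64 at day 10. It was in the stronger part of the common set, at a position under 50, in all 6 lists and had the strongest median of all members, 9.98. On day 3 its peak covered chr5:138170081-138173000 in replicate 1, with a fold enrichment of 35.2 over the caller's background in the authors' list. Cdc6, the ATPase that recruits the helicase to the origin complex, stood at the other end, with 63.4 and 98.0 at day 0, 71.8 and 91.2 at day 3, and 96.8 and 98.7 at day 10. Its median of 94.0 was the weakest of the members. Its peaks were also among the narrowest, 787 and 1172 bp wide at day 0, 1649 and 899 bp at day 3, and 496 and 1070 bp at day 10.

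Cdt1, the partner of CDC6 in loading, had one of the widest marks of the list. Its leading peak measured 1571 and 2732 bp at day 0, 3373 and 3131 bp at day 3, and 1525 and 3262 bp at day 10, so that both libraries of day 3 lay above both of day 0 while those of day 10 spread across the range. Orc1, the largest subunit of the origin recognition complex, had the highest log2 ratio of leading width between day 3 and day 0. The peak was 2291 and 2206 bp wide on day 3, against 731 and 735 bp on day 0, a log2 ratio of 1.62, and it was 1679 and 2395 bp wide on day 10. In both day 0 libraries, however, the window held 2 separate peaks whose widths summed to 1738 and 2077 bp, and the ratio of the sums was 0.24. Mcm6, another helicase subunit, behaved in a similar way, with 2809 and 2347 bp on day 3, against 740 and 1325 bp on day 0 (log2 ratio 1.32, and 0.60 for the sums). Mcm2, a further subunit, had 717 and 1105 bp on day 10, against 1889 and 1432 bp on day 3, a log2 ratio of -0.87 with no overlap between the days. The other 4 genes of the role, Gmnn, which encodes the CDT1 inhibitor geminin, and the helicase genes Mcm3, Mcm4 and Mcm5, had median widths over the 6 lists of 1240.5 to 2227.5 bp.

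Of the 4 genes of the replication fork and nucleotide supply, Cdc45 and Gins1 encode parts of the active helicase, Pcna the sliding clamp and Rrm2 a subunit of ribonucleotide reductase. Cdc45 had the second strongest median H3K4me3 position of the members, 19.1, and lay at 76.5 and 18.9 at day 0, 13.7 and 19.3 at day 3, and 22.2 and 7.88 at day 10. Replicate 1 of day 0 was the single library in which it lay on the weak side. Gins1 had the narrowest peaks of the list by median, 782 and 838 bp at day 0, 1258 and 1060 bp at day 3, and 816 and 1135 bp at day 10. Both libraries of day 3 were above both of day 0 there, and its position was as strong as 10.4 in replicate 1 of day 3 and as weak as 81.0 in replicate 1 of day 10. A narrow peak was thus not always a weak one. Rrm2 stayed on the weak side in all 6 lists, between 59.9 and 95.8, and Pcna ranged between 24.6 and 87.7.

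Among the G1/S regulators, the widths of the E2F and cyclin E genes varied, with medians over the 6 lists from 1007 bp at Ccne1 and 1294 bp at E2f2 to 2750 bp at E2f3. Ccne2, which encodes an activator of CDK2, had the widest median of the 36 members, 3078 bp, with 1540 and 2794 bp at day 0, 3510 and 3386 bp at day 3, and 2687 and 3362 bp at day 10. Its paralog Ccne1 had a leading peak of 386 and 653 bp at day 0, 2120 and 660 bp at day 3, and 1608 and 1354 bp at day 10. The log2 ratio at Ccne1 was 1.51 between day 10 and day 0 by leading peak and 0.36 by summed widths. E2f3, an activator of S phase genes, had the longest single peak of any member and list, 4034 bp in replicate 1 of day 3, and 3628 bp in replicate 2, against 2554 and 2894 bp on day 0. On day 10 the leading peak was 2606 and 870 bp wide, a log2 ratio to day 3 of -1.14, but the narrow one was 1 of 2 peaks that summed to 3786 bp, and the ratio of the sums was -0.16. E2f1, the founding member of the family, had 1485 and 1982 bp on day 10, against 2883 and 2588 bp on day 3, with no overlap (log2 ratio -0.66, and -0.23 for the sums). The largest shifts in leading width at E2f3, Ccne1 and Orc1 were therefore much smaller when split peaks were added up. E2f2, Cdk2, the kinase that cyclin E activates, and Cdc25a, the phosphatase that switches it on, had median positions of 46.3, 25.8 and 61.0.

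The mitotic entry genes lay mostly on the weak side of H3K4me3. Their median position was 65.3 and 69.4 at day 0, 84.4 and 86.7 at day 3, and 85.0 and 82.5 at day 10 (6 genes), and Cdk1, the mitotic kinase, was the exception at a median of 36.6, while Ccnb2, encoding cyclin B2, was at 66.5. Ccna2, encoding cyclin A2, was at 76.5 and 78.7 at day 0, 91.7 and 91.5 at day 3, and 84.8 and 93.6 at day 10. Cdc25c, the phosphatase that activates CDK1, was at 86.5 and 79.3 at day 0, 89.2 and 95.9 at day 3, and 98.0 and 86.3 at day 10. Both genes stood in the weak part of the common set in all 6 lists, as did Plk1, the polo-like kinase of mitosis, at 60.1 to 99.3. Cdc25c was also the single member that was narrower in both libraries of day 10 than in both of day 0, with 427 and 933 bp on day 10, against 1463 and 1027 bp on day 0. The log2 ratio there was -0.87 by leading peak and -0.33 by sum. Ccnb1, encoding cyclin B1, varied widely between libraries of the same day, at 18.9 and 89.0 at day 0, 51.5 and 75.6 at day 3, and 26.6 and 92.0 at day 10.

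Spindle and checkpoint genes differed among themselves in the same lists. Aurka, a spindle pole kinase, was in the stronger part of the common set in all 6 H3K4me3 lists, at 4.26 to 44.2. Bub1b, encoding the checkpoint protein BUBR1, was at 27.0 in replicate 1 of day 0 and 43.8 in replicate 1 of day 3, but at 86.4 to 95.0 in the other 4. The median positions of Aurkb, of the chromosomal passenger complex, Bub1, a checkpoint kinase, and Cdc20, an activator of the anaphase-promoting complex, were 51.9, 60.1 and 78.6. Of the remaining mitotic genes, the transcription factor gene Foxm1 had a strong mark, at 20.7 and 9.99 at day 0, 52.6 and 14.1 at day 3, and 48.0 and 20.3 at day 10. Mybl2, which encodes the MuvB-associated B-MYB, was in the stronger part only in replicate 1 of day 0, at 23.2, and otherwise between 66.4 and 95.6. Top2a, encoding the topoisomerase that untangles sister chromatids, and Mki67, encoding the proliferation marker Ki-67, had medians of 64.3 and 83.7.

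Set beside each other, the S phase members had the wider and mostly the stronger H3K4me3 by median. The median width of the 21 S phase genes exceeded that of the 15 mitotic genes in 6 of 6 H3K4me3 lists, by 29 to 328 bp. Their median position was 54.2 and 39.0 on day 3, against 79.6 and 77.2 for the mitotic genes, a difference of -25.4 and -38.2 points. The same direction held in 5 of the 6 lists. In replicate 1 of day 0 it was turned round, at 47.8 for S phase genes and 30.2 for mitotic genes. No test was made, since genes are not replicates and all lists share them. In RUNX2 the median width of S phase genes differed from that of mitotic genes by -11 and -16 bp for leading peaks, but by 227 and 285 bp for summed widths. Their median RUNX2 position was 36.9 and 38.9, against 46.8 and 49.0 for mitotic genes.

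Replicate 1 of day 0 also ranked the members unlike its partner. The Spearman correlation of positions over the 36 genes was -0.051 between the libraries of day 0, 0.772 on day 3 and 0.309 on day 10. Over the common set the values were 0.453, 0.648 and 0.441. These are descriptions over genes, which share library and base composition. That library had the shortest of the H3K4me3 lists, and its part in the order of S phase and mitotic genes was not tested beyond the values given for the other 5.

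RUNX2 on day 3 was found at the members at middling strength. Among the 12784 genes with a RUNX2 peak in both libraries, the members' median position was 39.5 in replicate 1 and 41.1 in replicate 2, and 23 and 21 of the 36 were at a position under 50. Ccnb1 ranked highest, at 3.41 and 4.26, with authors' fold enrichments of 9.72 and 16.9 in peaks at chr13:100785348-100786589 and chr13:100784988-100786620. Cdt1 followed at 18.02 and 10.1, and Cdc25a at 19.1 and 16.5. Plk1 and Cdc25c were at the weak end, with 85.3 and 81.3 for Plk1 and 83.5 and 81.7 for Cdc25c. E2f3 differed most plainly between libraries whose summits mostly coincide, at 68.7 in replicate 1 and 10.8 in replicate 2.

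The RUNX2 order was only loosely that of H3K4me3. The Spearman correlation between positions of the antibodies over the 36 genes was 0.265 in replicate 1 and 0.488 in replicate 2, against 0.432 and 0.447 over the 11358 genes with both. Ccnb1 had the strongest RUNX2 position beside an H3K4me3 position of 51.5 and 75.6 on day 3, and Ccna2 had RUNX2 at 41.7 and 37.2 beside H3K4me3 at 91.7 and 91.5. Gins1 showed the reverse, with RUNX2 at 60.4 and 74.9 beside H3K4me3 at 10.4 and 38.6. Pcna had RUNX2 at 71.8 and 66.8 beside H3K4me3 at 37.2 and 24.6, but its leading RUNX2 peak was another locus, with a summit 5752 bp downstream of the start and inside the window of Tmem230. Plk1, Cdc25c and Mki67 were weak in both.

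**Figure D3:**
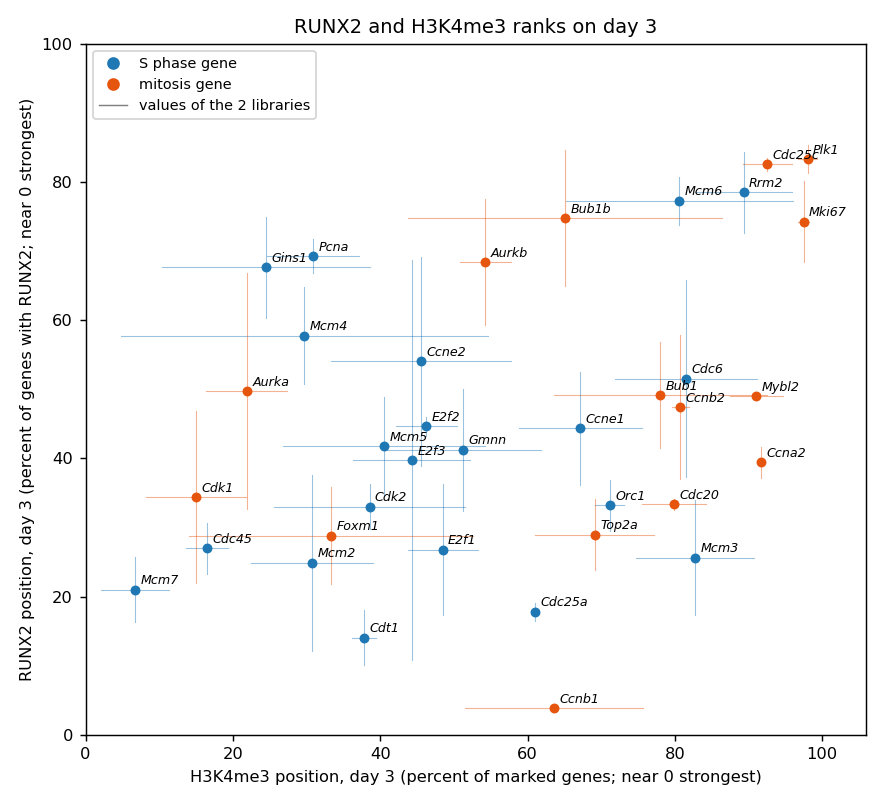
Position of each gene on day 3 in RUNX2 (vertical axis, percent of 12784 genes) against that in H3K4me3 (horizontal axis, percent of 11366 genes), both with 0 as the strong end; points are means of the 2 libraries and thin lines join the library values (S phase blue, mitosis orange). Ccnb1 lies lowest, at 3.83, and Mcm7 farthest to the left, while Plk1, Cdc25c, Mki67, Mcm6 and Rrm2 are in the upper right.

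At each member the leading RUNX2 peak overlapped an H3K4me3 peak in every pairing of the 4 lists of day 3, which was so for 99.0% of all genes with RUNX2. The median width of the members' RUNX2 peaks was 1458.5 and 1935 bp, and of the H3K4me3 peaks on that day 2353 and 2000.5 bp. In replicate 1 RUNX2 was narrower at 36 of 36 members (98.4% of all genes with both). In replicate 2 it was narrower at 20 of 36 (61.3%). The median width ratio was 0.631 and 0.984 at the members, against 0.655 and 0.960 over all genes with both. Both RUNX2 libraries were narrower than both H3K4me3 libraries at 20 members (59.5% of all genes with both). Within the RUNX2 pair, replicate 2 was the wider at all 36 members (96.3% of genes). The width difference between the antibodies was thus the larger in replicate 1.

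The leading summits sat beside the transcript start rather than on it, at the members and at other genes alike. A start was at hand for 28 members in the RefSeq promoter table, and a peak lay within 1 kb of one of their listed starts in all 8 lists. The RUNX2 summit was downstream of the start in both libraries at 23 of the 28, among them Pcna at 5752 bp. The signed median over the 28 was 262 and 265 bp. Without regard to side, the median distance was 300.5 and 299.5 bp, against 327 and 328 bp over 10330 genes with RUNX2 and a start. The RUNX2 summit was upstream at Orc1, Cdc6, Cdc45, E2f3 and Aurka. Only at Cdc6, at -107 bp, did it fall inside the stretch of 250 bases before to 50 after the start. The H3K4me3 summits were more mixed, with medians of 308 and 176 bp at day 0, 76.5 and -83.5 bp at day 3, and 193.5 and 94 bp at day 10. On day 3 the H3K4me3 summit was downstream at 15 and 14 of the 28. Its median distance on that day, without regard to side, was 260.5 and 266.5 bp, against 263 and 277 bp over the common set. For the counts by side and inside the stretch, the share over all genes was not taken. The RUNX2 and H3K4me3 summits of the same replicate number lay a median of 324 and 429 bp apart at the members, against 300.0 and 292 bp over all genes with both.

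**Figure D4:**
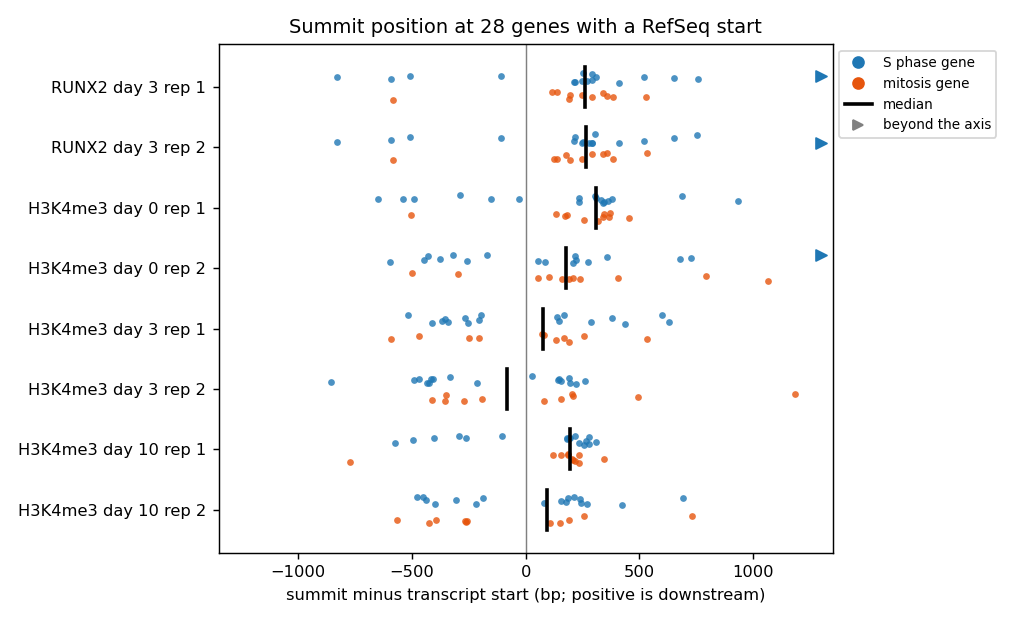
Distance in bp from a transcript start to the summit of the leading peak (positive is downstream) at the 28 genes with a RefSeq start, in the RUNX2 lists of day 3 and the 6 H3K4me3 lists; points are genes (S phase blue, mitosis orange), bars are medians, and triangles lie beyond the axis. RUNX2 points gather at a median of 262 and 265 bp downstream, and the triangles are Pcna at 5752 bp in both RUNX2 lists and 5609 bp in replicate 2 of day 0.

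Some leading summits also lay in the window of a neighbour, and such a peak cannot be assigned to one of the genes. The start of the neighbour was not used, so a shared window need not be a shared promoter. The leading H3K4me3 summit lay inside the extended span of another protein-coding gene in all 6 lists at 7 members (23.5% of the common set). These were Orc1 with Prpf38a, Mcm4 with Prkdc, Mcm7 with Ap4m1, Cdc45 with Ufd1, Cdk2 with Pmel, Aurka with Cstf1 and Foxm1 with Rhno1. All but Aurka and Foxm1 are S phase members. The part of shared windows in the order of S phase and mitotic members was not tested. The median position of these 7 was 51.5 and 16.4 on day 3, against 60.5 and 75.5 for the other 29. In all 6 lists the members with a shared window were the stronger by median. The same held for such genes in the common set (39.0 to 43.8, against 51.9 to 53.0 for the others). The 4 members with the strongest median position, Mcm7, Cdc45, Foxm1 and Aurka, are all among these 7. For RUNX2 the same was found in both libraries of day 3 at 8 members (24.7% of genes with RUNX2), the 7 above and Pcna with Tmem230. At Pcna the leading RUNX2 summit lay 5752 bp downstream of the Pcna start in both libraries. A weaker RUNX2 peak also covered the Pcna start, with fold enrichments of 3.99 and 9.32 in the authors' lists.

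The cell cycle motifs were counted in the promoters of the 28 members with an entry, with no test. An E2F match stood in 15 of 28 (53.6%), against 12.2% of all 17492 promoters and 18.4% of the 9257 in the common set. It was found in 12 of 17 S phase promoters and 3 of 11 mitotic ones. The CHR letters stood in 13 (46.4%), against 18.2% and 13.7%, with 4 of 17 S phase promoters and 9 of 11 mitotic ones. A CCAAT box stood in 23 (82.1%), against 39.0% and 39.7%. The Mcm6 sequence printed above has E2F matches at 5 places, some overlapping on opposite strands, and no CHR, while Top2a has 4 CHR matches, 6 CCAAT boxes and no E2F match. E2f1, Mybl2 and Ccne1 had none of these 3 motifs in the window. Of the 31 E2F matches, 3 overlapped a CCAAT box, in 2 members, and no other motifs overlapped.

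The RUNX letters were in 3 of the 28 promoters (10.7%), against 21.7% of all promoters and 20.7% of those in the common set. These were Mcm3, Mcm6 and Plk1. Their RUNX2 positions on day 3 were 17.3 and 34.0 at Mcm3, 73.8 and 80.8 at Mcm6 and 85.3 and 81.3 at Plk1, so that a match stood beside strong and weak peaks alike. Ccnb1, with the strongest RUNX2 peak, had no match in this window, which says only that the letters are absent from these 300 bases. A match is a description of the sequence, and as given above nearly all RUNX2 summits lay outside the window searched.

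Peaks were also found at the rest of the pathway. All 33 other replication genes, 26 other mitosis genes and 15 genes of the E2F, pocket protein and MuvB families had an H3K4me3 peak in all 6 lists and a RUNX2 peak in both libraries of day 3, and none had a RUNX2 peak on day 0 or 10. The other replication genes had a median RUNX2 position of 19.3 and 30.5 and the other mitosis genes 45.9 and 40.8, beside 39.5 and 41.1 for the 36 members. Among the S phase members, the 4 fork and nucleotide genes were lower in rank by median, at 66.1 and 69.7. The 10 licensing genes were at 35.8 and 41.4 and the 7 regulators at 36.3 in both libraries. Of the 4, only Cdc45 went the other way, at 23.2 and 30.7, and the Pcna value came from the peak in the window of Tmem230. On day 3 the H3K4me3 position of the other replication genes was 27.2 and 48.5, that of the other mitosis genes 43.3 and 59.6, and that of the E2F, pocket protein and MuvB genes 61.5 and 78.3. The wider median of S phase members over mitotic members was not seen between these other lists. The leading H3K4me3 peaks of the other replication genes had a median width of 1950 and 1681 bp on day 3, against 2372 and 1938 bp for the other mitosis genes. Over the 6 lists the replication genes were the wider only in replicate 2 of day 10, at 1888 bp against 1874.5 bp, and both lists of genes were at 1310 bp in replicate 1 of day 0.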

How the data were processed

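Of the 14 samples, the 12 with a peak list were used, in 6 groups of 2 libraries taken from the titles. The 2 input libraries were not analysed here. The submitters' processing notes list MACS2, HISAT2 2.2.0, Trim Galore and FastQC, and the sources used here do not give parameters, duplicate removal or use of the input. Peaks were deposited as 1 list per library. In the deposited narrowPeak columns the authors give the position, the score, the −log10 of p and q, and the enrichment over the caller's background at the summit, a linear fold ratio. These served only to describe and rank peaks within a list. Depth is unknown, so an uncalled peak does not show absence. The notes name GRCm39, but the coordinates matched the gene spans of GRCm38, which were used.

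Overlapping lines were merged and assembled chromosomes kept. Genes came from RefSeq GRCm38.p6, and values from Python 3.11.15, pandas 2.3.3, numpy 2.4.6 and scipy 1.17.1. Days were compared by 1 value per library with two-sided exact permutation tests at a threshold of 0.05, which 2 against 2 libraries cannot reach. Scripts were tested on simulated peak lists. Named in full were the 3 highest and 3 lowest members by width and by position, the 3 best for RUNX2 and the 3 largest width ratios without overlap for each pair of days; other members were named for their role or after their values were seen. Alternatives were other windows, summits inside the window, a −log10 q of at least 5, equal list lengths, summed widths, ranking by fold, a replicate block and leaving out each library. The members, lists and motifs were chosen with earlier results of these data known. Promoter sequences are RefSeq's, matched by symbol for 28 members, with no entry for Mcm4, Aurkb, Ccna2, Cdc25c, Gins1, Foxm1, Gmnn and Ccne2.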

Additional observations from a re-analysis of the deposited data

How the results depend on the processing

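Of 240 alternative values for 23 results, 228 were held as kept, 4 moved to or from 0 and 8 changed sign. A difference or ratio was kept when its sign and its side of the threshold were the same, whatever its size. A count was kept when it was close to the main one. The position difference of day 3 from day 0 was thus held as kept at 0.81 with unextended gene spans, against 5.31 in the main setting. With 2 libraries a day the exact permutation p cannot go below 0.333, so no comparison between days had a call to lose. With windows of 1 kb around either gene end, the number of members with an H3K4me3 peak per library differed by 0.5 between day 3 and day 0, and by 0.5 between day 10 and day 0. With equal numbers of top peaks, the RUNX2 difference was 0 for day 3 against day 0 and 0 for day 10 against day 3, since the shortest list then sets how many peaks are compared. The position difference of day 10 from day 3 was 0.466 with spans extended by 5 kb and 0.107 with gene ends. The log2 width ratio of day 10 to day 0 was -0.027 with summed widths.

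Without one library at a time, the log2 width ratio was 0.50 to 0.73 for day 3 over day 0, -0.72 to -0.06 for day 10 over day 3 and -0.094 to 0.56 for day 10 over day 0. The position difference was -2.50 to 13.1 for day 3 against day 0, -7.87 to 5.61 for day 10 against day 3 and -3.63 to 12.0 for day 10 against day 0. Leaving out replicate 1 of day 0 turned the sign of 2 position differences (-2.50 and -3.63). Leaving out replicate 1 of day 10 turned that against day 3 (5.61), and leaving out its replicate 2 turned the width ratio (-0.094) and position difference (-2.56) against day 0. The cause was not tested. The lone library left in such a group has no spread of its own.

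Libraries were not treated as paired by replicate number, because deviations from the day means did not correlate by over 0.1 in every pair of days. Across the 11366 genes the correlation was 0.09 between days 0 and 3, 0.17 between days 0 and 10 and 0.06 between days 3 and 10 for width, and 0.09, 0.32 and 0.07 for position. The positions of replicate 1 of day 10 and replicate 1 of day 0 had a Spearman correlation of 0.694, above that of the H3K4me3 libraries of any 1 day (0.441 to 0.648). With a replicate block the log2 width ratio was 0.62 for day 3 over day 0, -0.38 for day 10 over day 3 and 0.23 for day 10 over day 0, the position differences were 5.31, -1.13 and 4.18, and every comparison kept its direction. Unknown depth and unequal list lengths limit all values. Leading widths depend on how the caller split peaks, as at Orc1, Ccne1, Mcm6 and E2f3.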
